A study of Homo sapiens with 24 samples.

Results

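The transcripts of 10 circadian clock genes, PER1, PER2, PER3, CRY1, CRY2, NR1D1, NR1D2, DBP, TEF and BHLHE40, were followed across an RNA-seq experiment on the response of leukemia cells to a glucocorticoid. All RefSeq accessions of the count table that carry these symbols were taken, which gave 18 accessions of 64519 in the table, for 10 genes of 28163. Nalm6, a human cell line of B-cell precursor acute lymphoblastic leukemia, had been transduced with lentivirus encoding a nonspecific shRNA (shNS, the control) or an shRNA against the histone methyltransferases G9a (shG9a) or GLP (shGLP) or the heterochromatin protein HP1γ (shHP1γ). Each of these 4 cell populations was treated for 8 h with 100 nM dexamethasone (dex), a synthetic glucocorticoid, or with the same volume of its vehicle ethanol, in 3 biological replicates made on different days, so that 8 groups of 3 libraries were compared. All groups, the controls included, therefore carried a lentiviral shRNA. The hour of the day at which cells were harvested is not given in the sources used here.

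The circadian clock is a feedback loop in which the activators CLOCK and BMAL1 bind E-box sequences and switch on the genes of their own repressors, the PER and CRY proteins. A further loop runs through the nuclear receptors encoded by NR1D1 and NR1D2 (REV-ERBα and REV-ERBβ), which repress BMAL1. DBP and TEF are output factors that bind D-box sequences, and BHLHE40 (DEC1) competes at E-boxes. Glucocorticoids are known to reset clocks in peripheral tissues, and PER1 is a direct target of the glucocorticoid receptor in many cell types.

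Of the 18 accessions, 8 passed the filter of more than 1 CPM (a count scaled to the size of its library) in at least 2 libraries, with 1 accession each for PER1 (NM_002616), PER2 (NM_022817), CRY1 (NM_004075), CRY2 (NM_021117), NR1D1 (NM_021724), DBP (NM_001352), TEF (NM_003216) and BHLHE40 (NM_003670). The other 10 did not pass, and 6 of them were at 0 in all 24 libraries. PER3 had 5 accessions with no more than 1 count in any library, and NR1D2 had 3 accessions with no more than 3 counts, so neither gene could be tested. A mean count of at least 10 was reached by 46.7% of the 9391 genes with 1 coding accession and by 23.3% of the 10235 genes with 2 or more. PER3, NR1D2, CRY2 and TEF all have more than 1 accession, and whether the counting lowered their counts was not tested.

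Library totals ran from 9289533 to 14387770 counts with a median of 11132064.5. The dex response was present in the controls: FKBP5 (NM_001145777), a standard glucocorticoid target, rose with a log2 fold change of 1.75 ± 0.15 (SE, adjusted p = 1.41e-08) in shNS cells. Of 11 markers of B-cell precursors, 5 had a median of at least 1 CPM, led by RAG1 at 1061 to 2858 CPM and VPREB3 at 108 to 436 CPM, while the 4 T-cell markers summed to at most 0.27 CPM and the 2 erythroid markers to at most 0.309 CPM. The 3 NK-cell markers summed to 8.67 to 16.1 CPM, nearly all of it NKG7 at 8.50 to 16.1 CPM, and LYZ, a myeloid marker, ran from 1.61 to 31.1 CPM. The part of such markers in the results was not tested. CD79B, DNTT and CD22 were at 0. They have 4, 2 and 5 accessions, and whether the counting lowered their counts was not tested. The G9a transcript was not analysed here. The GLP transcript (EHMT1, summed over its accessions) was at 2.59 ± 0.813 CPM in shGLP and 4.07 ± 0.469 CPM in shNS cells with ethanol (SD, n = 3). With dex it was at 2.57 ± 0.470 and 3.33 ± 0.529 CPM. The HP1γ transcript (CBX3) was at 5.12 ± 0.739 CPM in shHP1γ and 6.79 ± 0.723 CPM in shNS cells with dex. With ethanol it was at 5.50 ± 0.703 and 7.37 ± 0.409 CPM. No tested accession of either gene passed edgeR's test between these groups (smallest adjusted p = 0.0923), so at these levels the counts alone do not verify the depletions. By immunoblot and RT-qPCR, the paper reports efficient depletion of G9a, GLP and HP1γ at the protein and mRNA level.

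PER1 and BHLHE40 had the largest changes among the clock genes, and the 250 bases upstream of the RefSeq start of each are shown because both hold a canonical E-box, CACGTG, printed in capitals. The sequences come from the RefSeq promoter table (GRCh38.p14), and each matched the hg19/GRCh37 genome of the files exactly once, PER1 on the minus strand of chr17:8055723-8055972 and BHLHE40 on the plus strand of chr3:5020872-5021121.
PER1: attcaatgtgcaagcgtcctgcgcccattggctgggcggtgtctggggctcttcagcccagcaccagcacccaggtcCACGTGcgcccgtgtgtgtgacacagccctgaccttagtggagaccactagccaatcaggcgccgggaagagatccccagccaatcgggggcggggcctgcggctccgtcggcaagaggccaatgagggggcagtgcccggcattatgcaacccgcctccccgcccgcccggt
BHLHE40: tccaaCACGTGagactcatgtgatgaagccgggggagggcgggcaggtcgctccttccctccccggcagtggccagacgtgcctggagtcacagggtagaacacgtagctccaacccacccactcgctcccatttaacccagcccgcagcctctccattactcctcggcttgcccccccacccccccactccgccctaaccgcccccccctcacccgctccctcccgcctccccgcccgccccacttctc
The E-box began 173 bases upstream of the PER1 start and 245 bases upstream of the BHLHE40 start. Within 250 bases upstream and 50 downstream, searched on both strands, CACGTG was present in 7.26% of 35116 RefSeq promoters and in those of 4 of the 10 clock genes, PER1, BHLHE40, NR1D2 and TEF. The D-box letters TTATGTAA or TTACGTAA were present in 1.01% of promoters and at PER2, PER3 and NR1D2. TGTTCT, an arm of the palindromic element bound by the glucocorticoid receptor, was present in 14.8% of promoters and only at BHLHE40 among the clock genes, where it read AGAACA on the plus strand. The cyclic AMP element TGACGTCA was in 1.85% of promoters and in none of the clock genes'. These shares are per promoter, while a clock gene was counted if any of its promoters held the letters. The 10 clock genes have 14 promoters in the set. NR1D2 also has a promoter with neither CACGTG nor the D-box letters, and PER3 has another without the D-box letters. The gene counts are therefore not directly comparable with the shares.

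The full glucocorticoid response element, TGTTCT and its reverse complement around a spacer of 3 free bases, was then searched within 5000 bases on either side of the start of the MANE Select transcript on GRCh37, a search added after the expression values were known. The best match among the clock genes lay 2070 bases upstream of the PER1 start, on chr17:8057778-8057792, where 11 of the 12 specified bases matched (capitals mark the specified bases that match).
PER1 element: AGAACAtgaTGTTCc
A match of at least 11 bases was found for 3.82% of 18876 protein-coding genes and for 1 of the 10 clock genes, PER1. A match of at least 10 bases was found for 44.03% of genes and 7 of the 10 clock genes. Such a match is a match of letters and does not show binding.

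Per kilobase of the MANE Select transcript, and averaged over the 24 libraries, the levels of the tested accessions were 62.0 CPM per kb for CRY1, 51.1 for PER1, 33.6 for PER2, 16.0 for DBP, 12.3 for NR1D1, 4.08 for BHLHE40, 0.426 for CRY2 and 0.264 for TEF. The ranges of CRY1 and PER1 over the libraries overlapped, as did those of PER1 and PER2, and of CRY2 and TEF. Those of DBP, NR1D1 and BHLHE40 all overlapped each other. The lowest PER2 value, 26.6 CPM per kb, lay above the highest DBP value, 19.8 CPM per kb. In shNS cells the place of PER1 differed with the treatment. With ethanol it was at 34.4 ± 5.22 CPM per kb (SD, n = 3), beside 34.0 ± 4.36 for PER2 and 59.3 ± 1.74 for CRY1, and with dex at 81.7 ± 10.5, above CRY1 at 59.1 ± 2.31 without overlap. In the depleted cells with dex, PER1 and CRY1 overlapped. PER1 was at 53.8 ± 12.6 against 64.2 ± 1.93 for CRY1 in shG9a cells. It was at 60.9 ± 8.40 against 59.9 ± 0.524 in shGLP cells, and 69.0 ± 5.13 against 64.2 ± 4.36 in shHP1γ cells. Lengths were taken from GENCODE. For CRY2 and TEF the level covers 1 of 2 accessions only, and whether the counting lowered their place in this order was not tested.

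PER1 encodes a repressor of the CLOCK and BMAL1 activators and was the only clock gene called with dex in all 4 populations. In shNS cells, PER1 was at 137, 160.5 and 186 CPM in the 3 ethanol libraries and at 353, 355 and 439 CPM in the 3 dex libraries. The groups did not overlap, and each dex library was at least 2.21 times its ethanol partner of the same replicate. The rise was 2.38-fold (log2 fold change 1.25 ± 0.08, SE, adjusted p = 4.63e-11). PER1 was the only member among the 194 accessions that also changed by at least 2-fold, 1.91% of those tested, and it passed the test under all 19 alternative settings tried.

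PER1 also rose with dex in every depleted population, by less than in the controls. In shG9a cells, PER1 was at 166, 166 and 186 CPM with ethanol and at 245, 196 and 314 CPM with dex, a rise of 1.44-fold (log2 fold change 0.53 ± 0.08, adjusted p = 7.68e-05). The dex libraries all lay above the ethanol libraries, but replicate 2 was 1.18 times its ethanol partner against 1.48 and 1.69 times in the other two. This call was lost without the replicate block (adjusted p = 0.0528), with only the groups compared in the fit (adjusted p = 0.0536) and without replicate 3 (adjusted p = 0.0784). In shGLP cells, PER1 was at 147, 153 and 191 CPM with ethanol and at 250.3, 276 and 328 CPM with dex, a rise of 1.74-fold (log2 fold change 0.80 ± 0.08, adjusted p = 2.29e-07). In shHP1γ cells, PER1 was at 157, 167 and 199 CPM with ethanol and at 313, 305 and 349.7 CPM with dex, a rise of 1.86-fold (log2 fold change 0.89 ± 0.08, adjusted p = 3.24e-08). In these 2 populations the dex and ethanol libraries were again separate, and both calls held under all 19 alternatives.

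**Figure D1:**
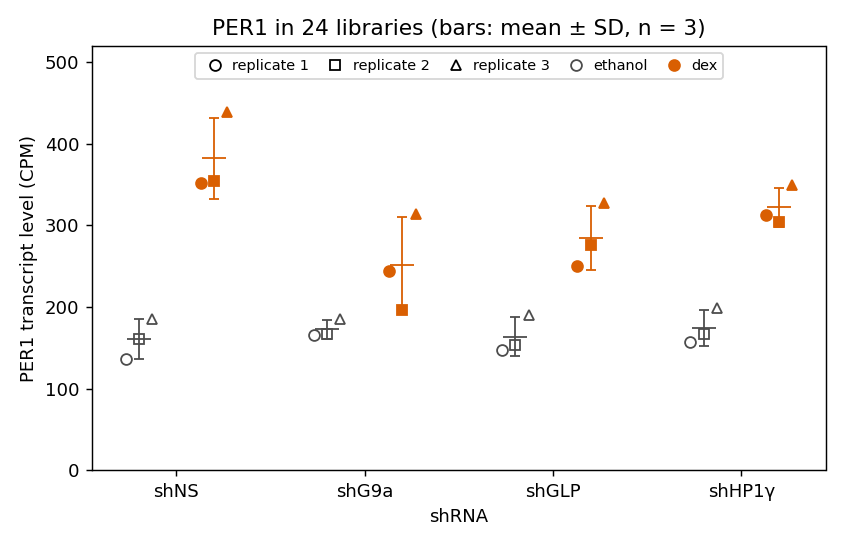
PER1 level in CPM (vertical axis, from 0) in each of the 24 libraries, by shRNA (horizontal axis), with open grey symbols for ethanol, filled orange symbols for dex, symbol shapes for the replicate number, and the mean ± SD of 3 libraries. The ethanol libraries lie between 137 and 199 CPM in all 4 populations, and the dex libraries reach 439 CPM in shNS cells and 314, 328 and 349.7 CPM in shG9a, shGLP and shHP1γ cells.

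Expressed in CPM, the gain of PER1 with dex was 221 ± 29.9 (SD, n = 3) in shNS cells, 79.1 ± 49.1 in shG9a cells, 121 ± 16.9 in shGLP cells and 148 ± 9.81 in shHP1γ cells. Replicate by replicate, the shG9a cells gained 36.6%, 15.4% and 50.6% of what the shNS cells gained, the shGLP cells 47.8%, 63.4% and 54.0%, and the shHP1γ cells 72.6%, 70.7% and 59.5%. Every depleted population thus gained less than the controls in 3 of 3 replicates. These percentages share the shNS libraries as their base.

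The difference in the dex response from that of shNS cells was tested as an interaction. For shG9a it was called for PER1, with a log2 difference of -0.72 ± 0.11 (adjusted p = 0.00344). It was the only clock gene among the 9 accessions called, 0.0885% of those tested. The call held under 20 of 25 alternatives. It was lost without the replicate block (adjusted p = 0.999), with only the groups compared in the fit (adjusted p = 0.066), and without replicate 1, 2 or 3 as a whole (adjusted p from 0.083 to 0.188). Without replicate 2 of the shG9a dex libraries alone it was -0.59 (adjusted p = 0.00138), and over all 25 it stayed between -0.84 and -0.59. For shGLP the log2 difference of PER1 was -0.45 ± 0.11 (adjusted p = 0.266) and for shHP1γ it was -0.35 ± 0.11 (adjusted p = 0.742). No clock gene was called in these 2 interactions, where 0.118% and 0.0197% of all accessions were. In each, edgeR gave 1 of the 8 clock genes, PER1, an unadjusted p under 0.05, as it did 3.89% and 3.81% of all accessions. PER1 was called for shGLP under 2 of 25 alternatives, DESeq2 among them (adjusted p = 0.0101), and for shHP1γ under 0 of 25.

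In dex-treated cells, PER1 was lower in each depleted population than in shNS cells in 3 of 3 replicates, and none of the groups overlapped with the shNS dex libraries at 353 to 439 CPM. It fell in shG9a cells to 0.654 of the control level (log2 fold change -0.61 ± 0.08, adjusted p = 1.22e-05), a call that held under all 19 alternatives. It fell in shGLP cells to 0.745 of the control level (log2 fold change -0.42 ± 0.08, adjusted p = 0.000706), a call lost without the replicate block (adjusted p = 0.159) and without replicate 3 (adjusted p = 0.0552). In shHP1γ cells the log2 fold change was -0.24 ± 0.08 and did not pass (adjusted p = 0.0800), although it passed with TMM scaling (adjusted p = 0.0422), with DESeq2 (adjusted p = 0.0122) and with no filter on low counts (adjusted p = 0.00794). The 3 comparisons share the shNS dex libraries. The paper, from its own fit with removal of unwanted variation, lists PER1 among the dex-regulated genes that depend on G9a, GLP and HP1γ. The main fit here did not call the shHP1γ part of that classification, and the reason for the difference was not tested.

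In ethanol-treated cells, no difference of PER1 between the populations passed the test. The log2 fold changes against shNS were 0.11 ± 0.08 for shG9a, 0.02 ± 0.08 for shGLP and 0.12 ± 0.08 for shHP1γ, with adjusted p of 0.584, 0.958 and 0.558. The ethanol libraries of all 4 populations overlapped.

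PER2, the paralog of PER1 with the same place in the loop, had a slight change in the opposite direction. In shNS cells it was at 189, 217 and 244 CPM with ethanol and at 170, 191 and 214 CPM with dex. The ranges overlapped because the replicates differed more from each other than the treatments did, but within each replicate the dex library was the lower one. PER2 fell to 0.884 of the ethanol level (log2 fold change -0.18 ± 0.05, adjusted p = 0.0197), a call that held under 9 of 19 alternatives and was lost, among others, without the replicate block, with 1 RUV factor in its place and with no filter. Without the replicate block its adjusted p was 0.614. In shG9a, shGLP and shHP1γ cells the log2 fold changes were -0.09, -0.13 and -0.06, each ± 0.05, and did not pass (adjusted p = 0.283, 0.192 and 0.639). With dex, PER2 was higher in shG9a cells, at 194, 208 and 243 CPM, than in shNS cells in 3 of 3 replicates (log2 fold change 0.17 ± 0.05, adjusted p = 0.0343), a call that held under 7 of 19 alternatives and not without the replicate block (adjusted p = 0.575).

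CRY1 and CRY2 encode the partners of the PER proteins in the repressor complex. CRY1 was at 176, 172 and 182 CPM in the shNS ethanol libraries and at 176, 170 and 184 CPM in the shNS dex libraries. Its log2 fold changes with dex were -0.00, -0.01, -0.02 and 0.00 in shNS, shG9a, shGLP and shHP1γ cells, each ± 0.06, with adjusted p from 0.948 to 0.998. CRY1 was thus the clock gene with the smallest values and, beside PER2, the smallest errors in these comparisons. In shG9a cells CRY1 lay above the shNS libraries without overlap, both with ethanol (189 to 198 CPM) and with dex (185 to 196 CPM), but the log2 fold changes of 0.13 ± 0.06 and 0.12 ± 0.06 did not pass (adjusted p = 0.319 and 0.223). CRY2 had 10 to 30 counts per library, its log2 fold changes with dex ran from -0.41 to 0.21 with errors of about 0.32, and differences of that size were not detectable at this depth.

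NR1D1 encodes REV-ERBα, the repressor of BMAL1, and DBP encodes a D-box activator. NR1D1 was at 25.5, 33.6 and 37.6 CPM with ethanol and at 22.3, 27.4 and 33.2 CPM with dex in shNS cells. DBP was at 34.9, 36.3 and 37.8 CPM with ethanol and at 30.8, 26.6 and 35.4 CPM with dex. Both genes had lower dex values in each pair, with ranges that overlapped. The log2 fold changes with dex of NR1D1 were -0.22, -0.09, -0.27 and -0.19 in shNS, shG9a, shGLP and shHP1γ cells (each ± 0.09, adjusted p = 0.131, 0.626, 0.113 and 0.324). Those of DBP were -0.23, -0.21, -0.22 and -0.31 (each ± 0.10, adjusted p = 0.158, 0.230, 0.297 and 0.0956). None of these 8 values passed. With only the groups compared in the fit, NR1D1 passed in shNS (adjusted p = 0.0310) and shGLP cells (adjusted p = 0.0367), and DBP in shNS (adjusted p = 0.0338) and shHP1γ cells (adjusted p = 0.00949). On GRCh37, NR1D1 (chr17:38249046-38256842) overlaps THRA and DBP (chr19:49133287-49140636) overlaps SPHK2, each on the opposite strand, and reads of overlapping genes cannot be told apart if strand was not used in the counting. PER2 and CRY1 overlap noncoding RNAs, and TEF a small nuclear RNA, on the opposite strand. PER1 overlaps a protein-coding gene without a symbol on its own strand, which strand could not separate. The part of these overlaps in the counts was not tested.

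Counted by replicate pairs, PER2, NR1D1 and DBP were lower with dex in 12 of 12 pairs over the 4 populations, a pattern found in 5.57% of all tested accessions, and PER1 was higher in 12 of 12, found in 4.68%. CRY1 was lower in 7 of 12, CRY2 in 5, TEF in 8 and BHLHE40 in 4. The plot of changes with dex shows these directions side by side.

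**Figure D2:**
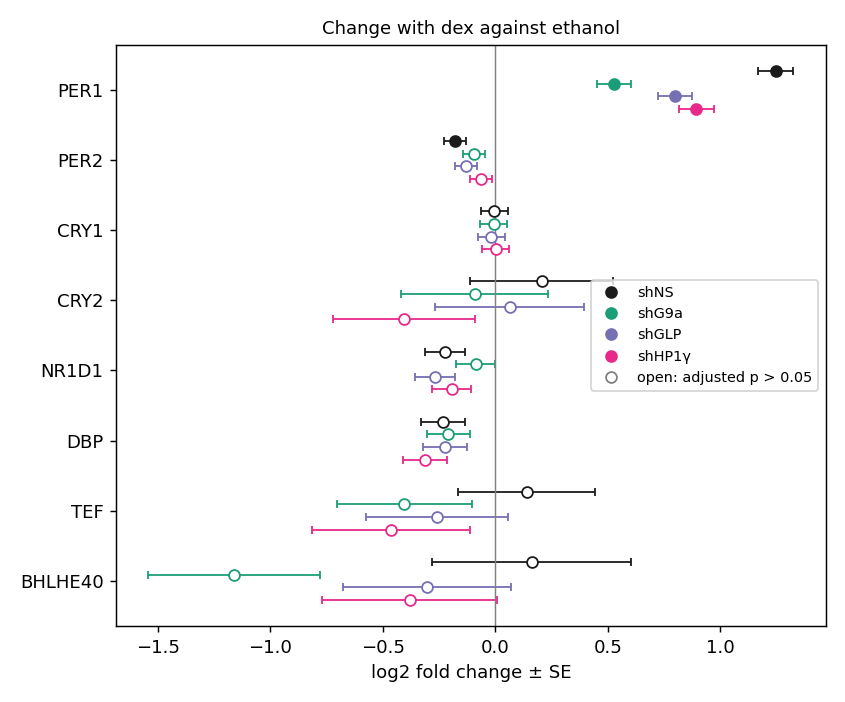
Log2 fold change with dex against ethanol (horizontal axis, ± SE) of the 8 tested clock genes (vertical axis) in shNS, shG9a, shGLP and shHP1γ cells, with filled points at an adjusted p of at most 0.05. PER1 lies from 0.53 to 1.25 in all 4 populations, PER2, NR1D1 and DBP lie below 0 with only PER2 in shNS cells filled, and CRY1 lies at 0.

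TEF, the second D-box factor tested, had 8 to 20 counts per library. Its log2 fold changes with dex were 0.14 ± 0.30 in shNS cells and -0.40 ± 0.30, -0.26 ± 0.32 and -0.47 ± 0.35 in shG9a, shGLP and shHP1γ cells, and none passed. With dex, TEF was at 0.797, 0.607 and 0.848 CPM in shHP1γ cells and at 1.47, 1.03 and 1.37 CPM in shNS cells. The groups did not overlap, but the log2 fold change of -0.79 ± 0.33 did not pass (adjusted p = 0.228).

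BHLHE40, the competitor at E-boxes, was called for depletion in ethanol and not for dex. In shNS cells it was at 6.78, 5.98 and 5.70 CPM with ethanol and at 7.64, 7.40 and 5.90 CPM with dex, a log2 fold change of 0.16 ± 0.44 (adjusted p = 0.895). In ethanol-treated cells it was at 16.0, 43.6 and 5.71 CPM with shG9a, at 13.2, 33.7 and 10.4 CPM with shGLP and at 7.61, 30.0 and 8.74 CPM with shHP1γ. In each depleted population the ethanol library of replicate 2 was the highest by far, and the third shG9a replicate lay within the shNS range. The log2 fold changes with dex were -1.16 ± 0.38 in shG9a cells (adjusted p = 0.0753), -0.30 ± 0.37 in shGLP cells (adjusted p = 0.806) and -0.38 ± 0.39 in shHP1γ cells (adjusted p = 0.767). The shG9a value passed with no filter on low counts (adjusted p = 7.71e-12) and without replicate 3 of the shG9a ethanol libraries (adjusted p = 0.0115), and was -0.60 without replicate 2 (adjusted p = 0.427). With no filter, the errors with dex in shNS cells were 0.08 for both PER1 and PER2, against 0.08 and 0.05 in the main fit. That of BHLHE40 was 0.18, against 0.44. The unfiltered p thus takes little account of the spread of BHLHE40, where dex was lower in 2 of 3 shG9a pairs.

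BHLHE40 rose in ethanol 3.03-fold with shG9a (log2 fold change 1.60 ± 0.40, adjusted p = 0.0257) and 2.81-fold with shGLP (log2 fold change 1.49 ± 0.41, adjusted p = 0.0390), and the 2.23-fold value with shHP1γ did not pass (log2 fold change 1.16 ± 0.41, adjusted p = 0.156). Each of these calls held under 7 of 19 alternatives, the fit with no filter on low counts among them. Without the replicate block, the adjusted p was 0.144 for shG9a and 0.207 for shGLP. Without replicate 2, the log2 fold changes were 0.75 (adjusted p = 0.293) for shG9a, 0.92 (adjusted p = 0.143) for shGLP and 0.41 (adjusted p = 0.617) for shHP1γ, so the size of the change rests on those libraries. The 3 comparisons share the shNS ethanol libraries, and no such difference between replicates was seen in those, which were at 5.70 to 6.78 CPM.

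With dex, BHLHE40 was at 13.9, 15.02 and 13.2 CPM in shGLP cells and at 11.3, 10.2 and 10.2 CPM in shHP1γ cells, above the shNS dex libraries without overlap. The log2 fold changes of 1.03 ± 0.41 for shGLP (adjusted p = 0.175) and 0.62 ± 0.42 for shHP1γ (adjusted p = 0.540) did not pass in the model of all 24 libraries, whose error for this gene includes the spread of the ethanol libraries. With only the groups compared, shGLP passed at a log2 fold change of 1.01 (adjusted p = 1.51e-07). In shG9a cells BHLHE40 was at 6.49, 12.4 and 7.26 CPM with dex and overlapped the controls. BHLHE40 (chr3:5021122-5027008) overlaps the antisense gene BHLHE40-AS1.

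**Figure D3:**
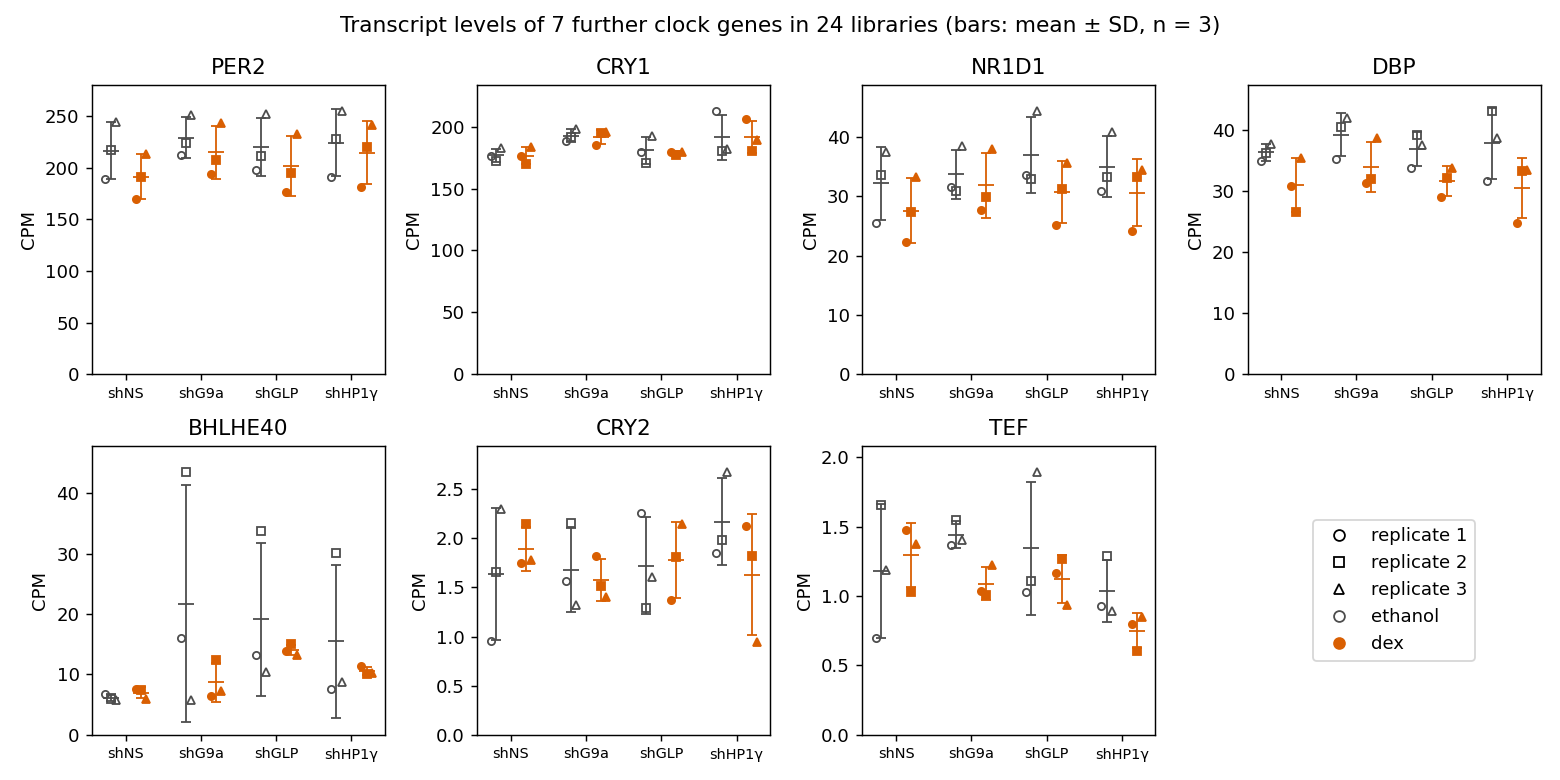
Levels in CPM (vertical axes, each from 0) of the other 7 tested clock genes in each of the 24 libraries, by shRNA (horizontal axes), with open grey symbols for ethanol, filled orange symbols for dex, shapes for the replicate number, and the mean ± SD of 3 libraries. In the BHLHE40 panel the replicate 2 ethanol libraries of the depleted cells stand at 43.6, 33.7 and 30.0 CPM while the shNS ethanol libraries lie at 5.70 to 6.78 CPM.

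**Figure D4:**
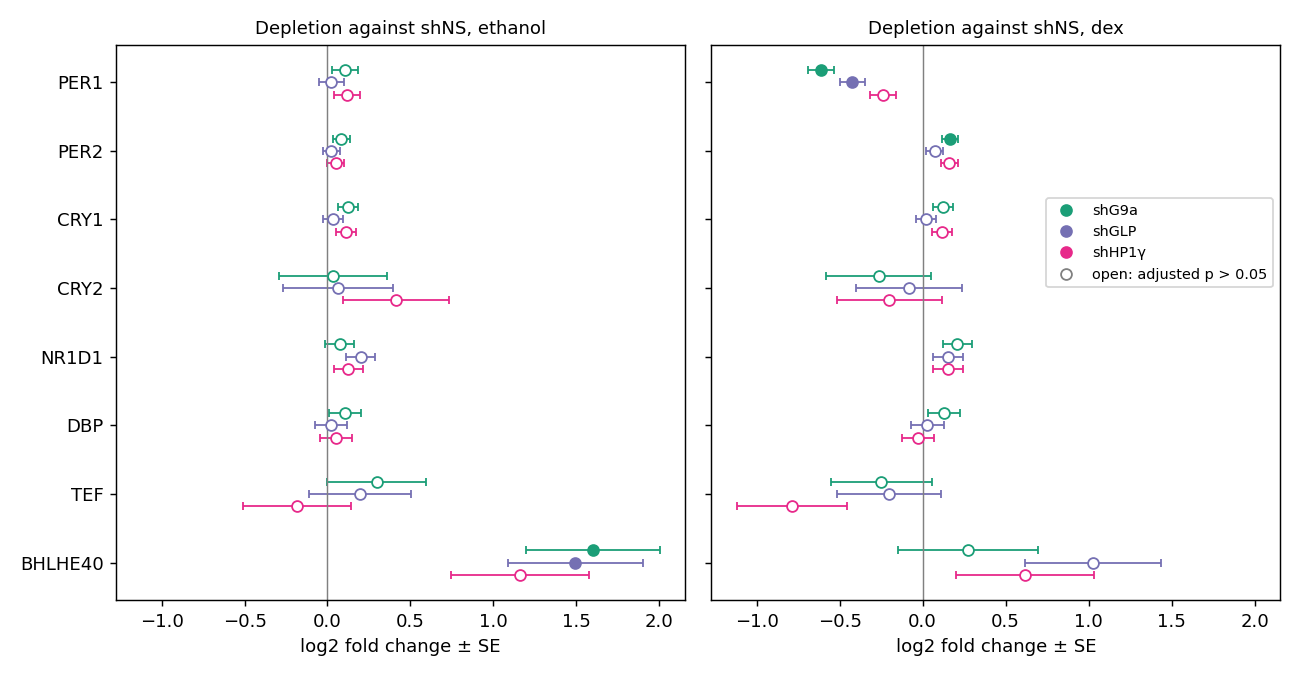
Log2 fold change of each depletion against shNS (horizontal axes, ± SE) for the 8 tested clock genes (vertical axes), in ethanol on the left and in dex on the right, with filled points at an adjusted p of at most 0.05. PER1 is filled at -0.61 for shG9a and -0.42 for shGLP in dex and lies near 0 in ethanol, PER2 is filled for shG9a in dex, and BHLHE40 is filled for shG9a and shGLP in ethanol.

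Over the 13 comparisons and 8 tested clock genes, 11 of 104 tests were called, 7 of them for PER1 and the rest for PER2 and BHLHE40. With dex, 2 of the 8 were called in shNS cells, where 9.95% of 10167 accessions were. In shG9a, shGLP and shHP1γ cells it was 1 of 8 each, PER1, where 6.24%, 3.29% and 3.22% of all accessions were called. Against shNS in dex, 2 of 8 were called for shG9a (8.8% of all accessions), 1 for shGLP (5.77%) and 0 for shHP1γ (4.09%). Against shNS in ethanol, 1 of 8 was called for shG9a (3.73%), 1 for shGLP (3.61%) and 0 for shHP1γ (2.91%). For shHP1γ, edgeR gave an unadjusted p under 0.05 for 3 of 8 in dex and 1 of 8 in ethanol, beside 15.6% and 14.4% of all accessions, DESeq2 called 1 and 0, and limma called 0 and 0. The median log2 fold change with dex over the 8 was 0.07 in shNS cells and -0.09, -0.18 and -0.25 in shG9a, shGLP and shHP1γ cells, beside medians over all tested accessions from -0.03 to 0.00. These medians include CRY2, TEF and BHLHE40, whose errors with dex ran from 0.30 to 0.44, and their differences between populations were not tested.

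Several clock genes differed between the replicates. PER1, PER2 and NR1D1 were highest in replicate 3 in 8 of 8 groups, and PER2 was lowest in replicate 1 in 8 of 8. Averaged over the groups, replicate 3 stood above replicate 1 by 1.25-fold for PER1, 1.28-fold for PER2, 1.38-fold for NR1D1 and 1.19-fold for DBP, and by 1.00-fold for CRY1. The PER2 difference between these replicates was larger than its change with dex. For 6.14% of all tested accessions a single replicate number was the highest in all 8 groups, and for 4.96% it was replicate 3.

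Around the core loop, a list of further clock regulators (activators, loop receptors, other D-box factors and repressors, kinases, ubiquitin ligases and cofactors) had 37 genes in the table, of which 16 were tested through 1 accession each. BMAL1, the partner of CLOCK, had 34 accessions with no more than 5 counts in any library and could not be tested. With dex in shNS cells 0 of the 16 were called in edgeR's test, and 2 had an unadjusted p under 0.05, as had 21.0% of all accessions. SFPQ, an RNA-binding protein found with PER complexes, fell with dex in shG9a cells (log2 fold change -0.27 ± 0.08, adjusted p = 0.0366), from 293 ± 44.2 to 243 ± 35.4 CPM (SD, n = 3). CSNK1E, the casein kinase 1ε that phosphorylates PER proteins, was higher with dex in shGLP cells (7.54 ± 0.893 CPM) and in shHP1γ cells (7.78 ± 1.01 CPM) than in shNS cells (4.47 ± 0.885 CPM), with log2 fold changes of 0.75 ± 0.21 (adjusted p = 0.0302) and 0.80 ± 0.20 (adjusted p = 0.0225). SIRT1, a deacetylase reported to act on clock proteins, was higher with dex in shGLP cells (17.1 ± 1.496 CPM) than in shNS cells (12.7 ± 0.966 CPM), with a log2 fold change of 0.43 ± 0.12 (adjusted p = 0.0310). No other call was made among these 16 in the 13 comparisons, so that 1 of 16 was called with dex in shG9a cells (6.24% of all accessions), and 2 and 1 of 16 for shGLP and shHP1γ in dex (5.77% and 4.09%).

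The accessions whose mean log2(CPM + 1) over the 8 groups followed that of PER1 most closely, among 5606 with a mean of at least 5 CPM, were TAPT1 (Pearson r = 0.984), KCNK3 (r = 0.983) and MBP (r = 0.982). Their log2 fold changes with dex in shNS cells were 0.83, 2.06 and 0.49, beside 1.25 for PER1. For PER2 they were NXPH4 (r = 0.986), MEX3A (r = 0.981) and CSTF3 (r = 0.979), with log2 fold changes with dex in shNS cells of -0.71, -0.61 and -0.25, beside -0.18 for PER2. These are descriptions over 8 group means from the same libraries.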

How the data were processed

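RNA of 24 Nalm6 libraries had been sequenced as paired reads, trimmed, mapped to hg19 with HISAT2 and counted on RefSeq transcripts with GenomicAlignments by the authors. The deposited table is named for CPM but holds whole-number counts with differing totals, and it was used as raw counts. The strand setting, counting mode and RefSeq release are not given in the sources used here. A deposited table of the authors' fold changes and FDR values was used only for gene symbols. No column of the table was left unassigned.

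Accessions with more than 1 CPM in at least 2 libraries (10167) were tested with edgeR 4.0.16 in R 4.3.3 by the quasi-likelihood F test, with upper-quartile scaling and a model of the 8 groups plus the replicate number. All 24 libraries shared one estimate of the spread. P values were 2-sided, with Benjamini-Hochberg adjustment across the full set of tested accessions, and a call means an adjusted p of at most 0.05. CPM values are scaled by the upper-quartile factors (levels of check genes by library totals), and errors of log2 fold changes are SE. Alternatives used no replicate block, TMM scaling, DESeq2 1.42.0, other filters, limma 3.58.1 on log2 values, 1 RUV factor, accessions summed per gene, only the groups compared, and left-out libraries. An exact sign-flip permutation test of 3 pairs cannot give p below 0.25, so no single-gene permutation test could pass.

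The block for the replicate number rests on the labels, by which replicates were made on different days, though not that 1 number marks 1 shared day. Deviations of same-numbered libraries from their group means correlated between -0.0025 and 0.639, over 0.1 in 70 of 84 pairs of libraries. No library duplicated another. The gene list, the wider regulator list and the tests were chosen with earlier results of these data known. All accessions of the 10 genes are named, with wider regulators named where called, and 3 like patterns per clock gene called with dex in shNS cells. One marker gene is not reported here.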

Additional observations from a re-analysis of the deposited data

Results flagged for a closer look

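The response of PER1 to dex differed between shG9a and shNS cells in the test of the difference itself, the interaction term, with a log2 difference of -0.72 (edgeR, adjusted p = 0.00344). PER1 rose 2.38-fold with dex in shNS cells and 1.44-fold in shG9a cells, with a smaller gain in 3 of 3 replicates. Replicate 2 of the shG9a cells had the smallest gain, 15.4% of that of the shNS cells. In that replicate the shG9a dex library had the largest total of all 24 libraries, 14387770 counts. It stood apart from replicates 1 and 3 of its group, with a chi-squared statistic per degree of freedom over accessions of 27.8 and 43.2, against 8.36 between replicates 1 and 3. Such a separation was also seen for replicate 1 of shHP1γ cells. With dex its values were 28.9 and 30.3, against 4.77 between replicates 2 and 3. With ethanol they were 21.6 and 29.6, against 10.3. Without the shG9a dex library of replicate 2 alone the log2 difference was -0.59 and was still called (adjusted p = 0.00138). The call was lost without replicate 1, 2 or 3 as a whole (adjusted p from 0.083 to 0.188), without the replicate block (adjusted p = 0.999) and with only the groups compared in the fit (adjusted p = 0.066).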

How the results depend on the processing

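The numbers of called accessions are given in the order dex in shNS, shG9a, shGLP and shHP1γ cells, then shG9a, shGLP and shHP1γ against shNS in dex, then the same in ethanol, then the 3 interactions, with 1012, 634, 334, 327, 895, 587, 416, 379, 367, 296, 9, 12 and 2 as reported. Without the replicate block they were 518, 227, 147, 159, 320, 269, 175, 112, 171, 66, 2, 1 and 1, and 7 of the 11 clock gene calls were lost. With only the groups compared they were 2207, 145, 971, 1110, 167, 1295, 209, 820, 848 and 132, with 2 and 96 for the shG9a and shGLP interactions. DESeq2 gave 18, 23 and 15 in the interactions, no filter gave 63, 23 and 31, and 1 RUV factor gave 5 for shG9a and 1 for shHP1γ. Leaving out libraries gave 306 to 834, 158 to 845, 85 to 281, 99 to 423, 157 to 947, 167 to 477, 67 to 390, 32 to 317, 97 to 275, 37 to 203, 0 to 13, 0 to 10 and 0 to 3. Of these, the first 10 lowest counts came without replicate 3, and the interactions had 0 without replicate 2. Each such fit also held fewer libraries, and the cause of these shifts was not tested. With TMM scaling, 523 of 926 calls with dex in shNS cells were higher, against 457 of 1012, and 191 of 336 for shG9a in ethanol, against 162 of 379.

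Among 2074 alternative values for the clock genes, none changed the sign of a called value, 56 lost a call and 18 gained one. PER1 with dex in shNS, shGLP and shHP1γ cells, and in shG9a against shNS cells with dex, was called under every alternative run. Counts of CRY2 and TEF did not exceed 30 and 20, which limited their precision, and PER3 and NR1D2 were too low to test.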

Other observations

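The replicate 2 ethanol libraries of the shG9a, shGLP and shHP1γ cells, which carried the high BHLHE40 values, stood above the other 21 libraries for 21 of 5606 accessions with a mean of at least 5 CPM. This set was chosen after the values were seen and was given no test. BHLHE40 had the widest separation, with 43.6, 33.7 and 30.0 CPM against 5.70 to 16.0 CPM elsewhere. HK2, which encodes hexokinase 2, was at 1117, 1068 and 1045 CPM against 488 to 830.4 CPM. BNIP3, a mitochondrial protein of the BCL2 family, was at 459, 335 and 341 CPM against 95.6 to 281 CPM, and the noncoding RNA MIR210HG at 38.6, 31.2 and 34.0 CPM against 3.50 to 26.9 CPM. SLC2A1, the glucose transporter GLUT1, was at 289, 252 and 267 CPM against 141 to 219 CPM. PGK1 and EGLN1 were also in the set. The shNS ethanol library and the 4 dex libraries of replicate 2 were among the other 21.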
